A study of Mus musculus with 21 samples.

Results

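The genes described here are 10 regulators of the actin skeleton that shape dendrites and carry migrating dendritic cells: Fscn1, Marcks, Marcksl1, Lcp1, Lsp1, Coro1a, Wipf1, Myo1g, Dock8 and Was. They were chosen by name, with earlier results of these data known. All 10 of them were found among the 37734 genes in the deposited files and passed the filter on low values. RNA was sequenced from thymic and splenic conventional dendritic cells (cDC) of untreated C57BL/6 mice aged 6 to 8 weeks, and each sample came from cells pooled over mice. Cells of the cDC1 subset were sorted as CD24+ CD11b- and cells of the cDC2 subset as CD24- CD11b+, both CD11c+ and B220-. Mature thymic cells were CCR7+ ESAM+, immature thymic cells were CCR7- ESAM-, and splenic cells were the immature cells of the other organ, so no mature splenic group was compared. The 6 groups were immature splenic cDC1 (n = 4), immature thymic cDC1 (n = 4), mature thymic cDC1 (n = 3), immature splenic cDC2 (n = 3), immature thymic cDC2 (n = 3) and mature thymic cDC2 (n = 3). In both groups of 4 samples the labels give 3 numbers. Replicates 1 and 4 of splenic cDC1 share a number, as do replicates 3 and 4 of immature thymic cDC1. The latter also share a sequencing index and a lane.

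Marker RNA was read in each group first. The summed level of 7 mature dendritic cell genes was 311276 to 425570 normalized read counts in mature samples and 19963 to 57365 in immature samples. This list includes Ccr7 and Esam, whose proteins were used for the sort. Ccl22 and Ccr7 had its highest means in mature thymic cDC1, at 145967 and 110227. Of the subset genes, the cDC1 list summed to 102537 to 111841 in immature thymic cDC1 and to 40531 to 44177 in mature thymic cDC1, while the cDC2 list summed to 64344 to 66471 in immature thymic cDC2 and to 14073 to 18224 in mature thymic cDC2. In thymic cDC2 the cDC1 list summed to 7725 to 11611 in immature and to 14331 to 22462 in mature samples. In each mature thymic cDC2 sample the cDC1 list summed to more than the cDC2 list. In thymic cDC1 the cDC2 list summed to 551 to 962 in immature and to 2114 to 3624 in mature samples, though Itgam was at 0 in the mature ones. Depth was 14266867 to 40119669 reads counted in genes per library, and the sum of the normalized values was higher in each mature sample than in any immature sample. Splenic cDC1 replicates 4 and 5 shared a label number, a sequencing index and a lane. Their chi-square per degree of freedom was 2.44, while every other pair within a group gave 20.4 to 176. Their mean was therefore counted as 1 sample and called replicate 4. Immature thymic cDC1 replicates 3 and 4 also shared number, index and lane, but gave 92.8, the highest value of their group. They were kept as separate samples, and the reason for this value was not tested. The samples farthest from the rest of their own group were replicate 3 of mature thymic cDC2, replicate 2 of splenic cDC2 and replicate 3 of splenic cDC1, whose lowest chi-square per degree of freedom against another sample of their group was 99.97 to 125. Results that rest on them are given with and without them.

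Actin filaments are built and arranged by a small set of protein machines. The Arp2/3 complex makes branched networks once a nucleation-promoting factor such as WASP switches it on, bundling proteins such as fascin and plastin bind filaments side by side, and linkers tie the filament layer to the membrane. Dendritic cells are known for the change they undergo on maturation, when they stop sampling their surroundings, extend long dendrites and, in the thymus, meet developing T cells in the medulla.

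Fscn1 encodes fascin, which packs filaments into the tight parallel bundles of dendrites. Lcp1 encodes L-plastin, the bundling protein of blood cells, and was the other bundler on the list. Fscn1 lies at chr5:142960343-142973185 on the plus strand and Lcp1 at chr14:75131101-75230842 on the plus strand (mm10). The 250 bases before their starts in RefSeq (GRCm38.p6) are shown because these genes moved in opposite directions on maturation. They span chr5:142960105-142960354 for Fscn1 and chr14:75130873-75131122 for the first of 2 starts of Lcp1, both on the plus strand. Capitals mark matches to the motifs searched.
Fscn1: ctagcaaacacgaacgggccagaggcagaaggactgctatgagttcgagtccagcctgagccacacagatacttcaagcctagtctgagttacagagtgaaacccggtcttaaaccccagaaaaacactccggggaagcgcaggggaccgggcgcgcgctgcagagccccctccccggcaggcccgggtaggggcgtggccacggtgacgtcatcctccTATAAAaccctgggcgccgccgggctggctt
Lcp1: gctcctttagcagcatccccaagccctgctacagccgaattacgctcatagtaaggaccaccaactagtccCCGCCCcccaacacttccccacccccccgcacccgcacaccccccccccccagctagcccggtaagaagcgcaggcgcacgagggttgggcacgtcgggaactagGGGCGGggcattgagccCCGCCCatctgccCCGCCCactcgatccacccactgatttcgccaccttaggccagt
The Fscn1 window held a single match, a TATA box (TATAAA) on the sense strand at bases 31 to 26 before the start, and 12.4% of 32851 RefSeq windows of this length held one on either strand. The Lcp1 window held 4 GC boxes (GGGCGG on either strand), and 32.7% of windows held at least 1. The bases were 62.4% G or C in the Fscn1 window and 66.0% in the Lcp1 window, against a median of 52.4% over all windows. The kB motif (GGGNNTTTCC, 1.41% of windows), the ETS motif (GAGGAAGT, 2.44%), the interferon response motif (GAAANNGAAA, 2.98%), the AP-1 motif (TGANTCA, 6.75%) and the E box (CACGTG, 6.02%) had no match in either window. Both strands were searched, and no 2 of the matches shown overlapped. The window before the second Lcp1 start, which is not shown, was 41.6% G or C and held no match. Of the other 6 members with a RefSeq window, Coro1a, Wipf1 and Dock8 held GC boxes, Wipf1 also held the interferon response motif, and Marcksl1, Myo1g and Was held no match. A match is a string of letters and was not tested as a binding site.

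Maturation was compared within the thymus, mature minus immature, for each subset. A gene was called changed at an adjusted p below 0.1 and more than 2-fold, by limma on log2(value + 1) with Benjamini-Hochberg adjustment over 14970 genes, and every log2 fold change below is on that scale. In cDC1, 9 of 10 members were called, 6 higher and 3 lower in mature cells, where 45.7% of all genes tested were called (21.3% higher and 24.5% lower). In cDC2, 8 of 10 were called, 6 higher and 2 lower, where 35.6% of all genes were called (18.6% higher and 17.0% lower). The median absolute log2 fold change of the members was 2.26 in cDC1 and 1.30 in cDC2, against 0.99 and 0.79 over all genes tested. Mature and immature samples did not overlap for 9 of 10 members in each subset, where 55.3% of all genes in cDC1 and 60.0% in cDC2 did not overlap. Because the members were chosen with earlier results of these data known, these comparisons with all genes are descriptive only. Samples were pools of mice and the labels do not say that every pool was prepared separately, so the p-values measure the spread between these samples, which may in part be technical. In bulk RNA, fewer cells of a type and less RNA per cell cannot be told apart.

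**Figure D1:**
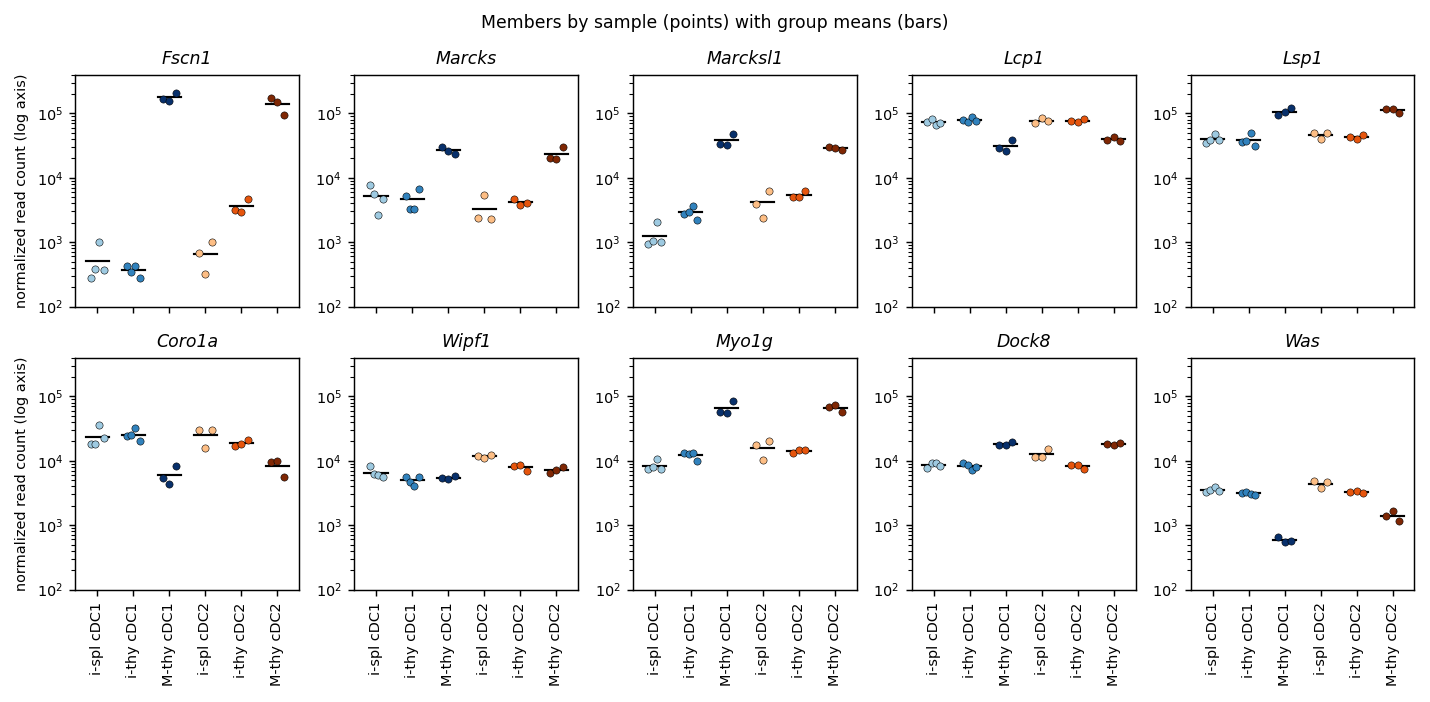
Normalized read count (log axis) of each of the 10 genes in each of the 20 samples, with points for samples and bars for group means, by group along the horizontal axis. The mature thymic points lie above the immature thymic points for Fscn1, Marcks, Marcksl1, Lsp1, Myo1g and Dock8, below them for Lcp1, Coro1a and Was, and among them for Wipf1.

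Fscn1 moved farthest of the 10. In thymic cDC1 it had 431, 340, 421 and 273 normalized read counts in the 4 immature samples and 164339, 156981 and 209834 in the 3 mature samples. In thymic cDC2 it had 3198, 2972 and 4640 in immature samples and 170178, 152161 and 95263 in mature samples. The lowest mature sample of either subset was thus far above the highest immature one, and replicate 3 of mature cDC2 was the lowest of the mature samples. The rise was 486-fold in cDC1 (log2 fold change 8.93, SE 0.37, adjusted p = 7.18e-14) and 38.2-fold in cDC2 (log2 fold change 5.26, SE 0.40, adjusted p = 1.24e-09). Fscn1 alone made up 0.347 to 0.667% of all counts in mature samples and at most 0.0209% in immature samples. Per kilobase of exon it ranked first of the 10 members in mature cDC1, at 58782 counts per kb, and last of them in immature thymic cDC1, at 122 counts per kb.

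Lcp1 was lower in mature cells of both subsets. It had 78633, 74040, 88447 and 75280 counts in immature thymic cDC1 and 29454, 26049 and 38405 in the mature cells (log2 fold change -1.35, SE 0.18, adjusted p = 1.27e-06). In thymic cDC2 it had 75386, 72189 and 82756 in immature samples and 39161, 42198 and 37370 in mature samples. Again no mature sample reached an immature one, but the log2 fold change in cDC2 was -0.96 (SE 0.19, adjusted p = 2.73e-04), a 1.94-fold difference that stayed just under the 2-fold limit. It was called at -1.26 when all libraries were scaled to equal totals and, just past the limit, without mature thymic cDC2 replicate 2 (adjusted p = 9.16e-04).

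The ratio of the bundlers within a sample does not depend on how libraries were scaled. Mature cDC1 held 5.46 to 6.03 Fscn1 counts per Lcp1 count and mature cDC2 2.55 to 4.35, while immature thymic cDC1 held 0.00364 to 0.00549 and immature thymic cDC2 0.0412 to 0.0561. Every mature sample had a higher ratio than any immature sample. These are ratios of counts and are not corrected for exon length. The log2 ratio differed by 10.28 in cDC1 (exact two-sided permutation test, p = 0.0286, Benjamini-Hochberg adjusted p = 0.0857 over 6 ratio comparisons), which is the smallest p that 3 against 4 samples allow. With 1 sample per label number the comparison was 3 against 3, and p was 0.1. In cDC2 it differed by 6.21 (exact permutation p = 0.1, adjusted p = 0.12), and 3 against 3 samples cannot go below 0.1.

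Marcks, Marcksl1 and Lsp1 are substrates of protein kinase C or bind actin beneath the membrane. Marcks (chr10:37133375-37138920, minus strand) and Marcksl1 (chr4:129513581-129515985, plus strand) are paralogs, and each binds the inner membrane leaflet and releases it when phosphorylated. A matched stretch of their coding sequences (GENCODE M21 transcripts, longest open reading frame) is shown because reads from a shared stretch could have been assigned to either gene. Capitals mark bases that are the same in both.
Marcks coding bases 73 to 144: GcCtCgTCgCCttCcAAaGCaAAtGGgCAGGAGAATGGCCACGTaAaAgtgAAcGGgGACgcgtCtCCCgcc
Marcksl1 coding bases 58 to 129: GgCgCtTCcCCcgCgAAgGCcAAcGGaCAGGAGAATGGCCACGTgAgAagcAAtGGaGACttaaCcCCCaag
In these 72 bases, 46 were the same (63.9%). The longest run shared by the open reading frames was 17 bases, so no stretch of 31 bases was common to them. The rest of the transcripts was not compared. The pseudogene Marcksl1-ps4 was at 0 in every sample.

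Marcks rose in both subsets. It had 5167, 3230, 3286 and 6773 counts in immature thymic cDC1 and 29579, 26460 and 23662 in mature thymic cDC1 (log2 fold change 2.59, SE 0.33, adjusted p = 1.09e-06). Immature thymic cDC2 had 4649, 3754 and 4053, and mature thymic cDC2 19971, 19680 and 30092 (log2 fold change 2.46, SE 0.35, adjusted p = 8.77e-06). No immature sample came near the mature range in either subset.

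Marcksl1 rose more in cDC1 than in cDC2. Its counts were 2760, 2978, 3698 and 2175 in immature thymic cDC1 and 33882, 32709 and 47112 in the mature cells (log2 fold change 3.71, SE 0.28, adjusted p = 3.95e-10). In thymic cDC2 they were 5095, 5009 and 6123 in immature samples and 30532, 28550 and 26908 in mature samples, a log2 fold change of 2.41 (SE 0.29, adjusted p = 1.03e-06). The mature samples of cDC2 all lay below those of cDC1, and the immature samples of cDC2 all lay above those of cDC1. The difference between the changes was -1.30 on the log2 scale (SE 0.40, adjusted p = 0.0374).

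The ratio of the paralogs was compared in the same way. Marcksl1 to Marcks was 0.321 to 1.13 in immature thymic cDC1 and 1.15 to 1.99 in mature thymic cDC1, a difference of 1.12 on the log2 scale (exact permutation p = 0.0857, adjusted p = 0.12). The corresponding difference in cDC2 was -0.05 (exact permutation p = 0.9, adjusted p = 0.9), with 1.10 to 1.51 in immature and 0.894 to 1.53 in mature samples. The sign of the cDC2 value turned on 1 sample, being 0.19 without mature thymic cDC2 replicate 3 and 0.06 without immature thymic cDC2 replicate 3.

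**Figure D2:**
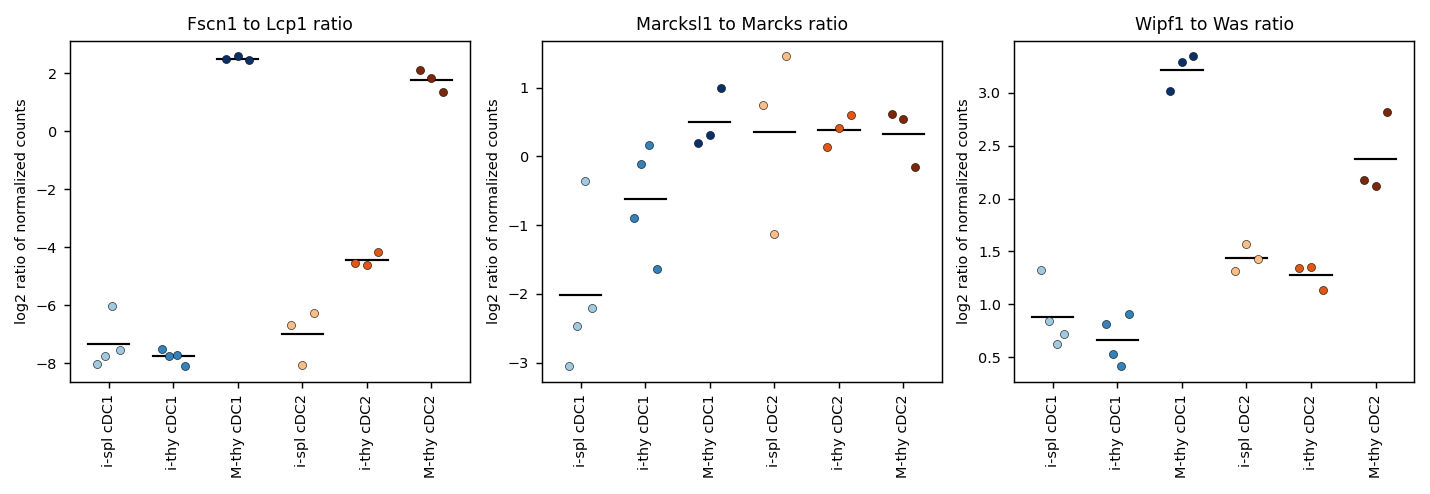
Log2 ratio of normalized counts within each sample for the Fscn1 to Lcp1, Marcksl1 to Marcks and Wipf1 to Was pairs, with the 6 groups along the horizontal axis and 1 point per sample. Mature samples lie highest for Fscn1 to Lcp1 and for Wipf1 to Was, and for Marcksl1 to Marcks the mature and immature cDC2 points overlap.

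Lsp1 (chr7:142460809-142494867, plus strand) encodes the leukocyte-specific actin-binding protein LSP1. It stood at 35955, 37514, 49783 and 31100 counts in immature thymic cDC1, and at 94336, 103082 and 122471 in mature thymic cDC1 (log2 fold change 1.48, SE 0.19, adjusted p = 1.19e-06). In thymic cDC2 the counts were 42147, 40212 and 46684 in immature samples and 116399, 116306 and 99993 in mature samples (log2 fold change 1.37, SE 0.20, adjusted p = 1.35e-05). The groups were clear of each other in both subsets.

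Was, Wipf1 and Coro1a relate to branching by Arp2/3 in different ways. On maturation Was and Coro1a fell, and Wipf1 did not pass the test. Was encodes WASP, the nucleation-promoting factor of blood cells, Wipf1 encodes WIP, the partner that stabilizes WASP, and Coro1a encodes coronin-1A, which binds filaments and restrains Arp2/3.

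Was (chrX:8081453-8090498, minus strand) had 3187, 3301, 3069 and 2933 counts in immature thymic cDC1 and 662, 539 and 572 in mature thymic cDC1. The fall was -2.40 on the log2 scale (SE 0.13, adjusted p = 4.46e-12). In thymic cDC2 the counts were 3258, 3351 and 3168 in immature samples and 1403, 1669 and 1150 in mature samples, a log2 fold change of -1.23 (SE 0.14, adjusted p = 4.85e-07). The immature samples of both subsets thus shared 1 narrow level, while all mature cDC1 samples lay below all mature cDC2 samples. The changes differed between subsets by 1.18 (SE 0.19, adjusted p = 3.66e-04).

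Wipf1 (chr2:73429610-73529734, minus strand) did not pass the test in either subset. It had 5598, 4754, 4095 and 5504 counts in immature thymic cDC1 and 5346, 5272 and 5827 in mature thymic cDC1 (log2 fold change 0.15, SE 0.15, adjusted p = 0.423), and under equal totals the sign turned to -0.15. In thymic cDC2 it had 8280, 8586 and 6960 in immature samples and 6344, 7252 and 8140 in mature samples (log2 fold change -0.13, SE 0.16, adjusted p = 0.528). Mature and immature samples overlapped in both subsets.

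The ratio of WIP RNA to WASP RNA was also taken within samples. Wipf1 to Was was 1.33 to 1.88 in immature and 8.07 to 10.2 in mature thymic cDC1, a 5.85-fold difference (2.55 on the log2 scale, exact permutation p = 0.0286, adjusted p = 0.0857). With 1 sample per label number p was 0.1. In thymic cDC2 it was 2.20 to 2.56 in immature and 4.34 to 7.07 in mature samples, a 2.13-fold difference (1.09 on the log2 scale, exact permutation p = 0.1, adjusted p = 0.12). The groups did not overlap in either subset.

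Coro1a (chr7:126699773-126707787, minus strand) fell in cDC1, from 24542, 24883, 32597 and 20117 counts in immature samples to 5445, 4331 and 8248 in mature samples (log2 fold change -2.12, SE 0.28, adjusted p = 2.00e-06). In cDC2 it had 17076, 18198 and 21101 in immature samples and 9591, 9935 and 5617 in mature samples (log2 fold change -1.20, SE 0.30, adjusted p = 0.0026). Although these groups did not overlap, the call in cDC2 rested on mature replicate 3, without which the log2 fold change was -0.94 (adjusted p = 0.0232). The changes in the subsets differed by 0.91 (adjusted p = 0.163), and by 1.18 without mature thymic cDC2 replicate 3 (adjusted p = 0.0673) and 1.17 without mature thymic cDC1 replicate 3 (adjusted p = 0.0647). Coro1a shares 26 exon bases with Bola2 on the opposite strand, which had 218 to 741 counts, and whether counting used strand is not given in the sources used here.

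Myo1g and Dock8, the motor and the exchange factor, rose. Myo1g (chr11:6506548-6520965, minus strand) encodes a class I myosin of blood cells that links membrane to actin. Its counts were 13194, 12587, 12989 and 9845 in immature thymic cDC1 and 57896, 54904 and 85637 in the mature cells (log2 fold change 2.42, SE 0.21, adjusted p = 5.14e-09). In thymic cDC2 they were 13241, 14465 and 14547 in immature samples and 69031, 72912 and 56330 in mature samples, a log2 fold change of 2.22 (SE 0.23, adjusted p = 1.03e-07). The group means of the mature subsets, 66146 and 66091, were close, and the changes did not differ between subsets beyond the error.

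Dock8 (chr19:24999534-25202432, plus strand) encodes an exchange factor that activates Cdc42 and that dendritic cells need to migrate through tissue. It had 9230, 8462, 7264 and 7954 counts in immature thymic cDC1 and 17557, 17585 and 19882 in mature thymic cDC1 (log2 fold change 1.16, SE 0.13, adjusted p = 2.37e-07). Immature thymic cDC2 had 8573, 8577 and 7500, and mature thymic cDC2 17884, 17675 and 19017 (log2 fold change 1.15, SE 0.14, adjusted p = 1.25e-06). The groups were clear of each other in both subsets, but with libraries scaled to equal totals the log2 fold change was 0.86 in cDC1 and 0.84 in cDC2, below 2-fold. That scaling moved the median over all genes from -0.04 to -0.33 in cDC1 and from 0.04 to -0.26 in cDC2, and the genes called in cDC1 from 3183 higher and 3665 lower to 2540 higher and 4459 lower.

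**Figure D3:**
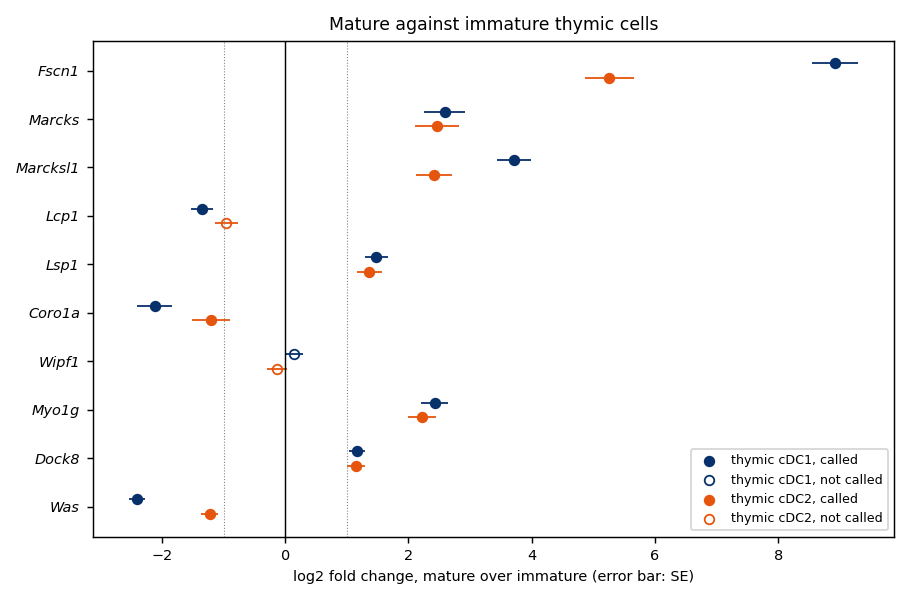
Log2 fold change on the log2(value + 1) scale, mature minus immature thymic, of the 10 genes in cDC1 and cDC2, with bars for standard errors, filled points for called genes and dotted lines at 2-fold. Fscn1 is farthest to the right at 8.93 and 5.26, and Was in cDC1 is farthest to the left at -2.40.

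Some measures moved with maturation beside these genes. The summed level of the 12 T cell markers was 257 to 388 counts in immature thymic samples and 918 to 2094 in mature thymic samples, with 11 of 12 markers at a mean of at least 10 in each mature group and Ptcra at 0 in immature thymic cDC1. The summed level of the 8 macrophage markers was 983 to 1269 in immature and 5861 to 8505 in mature thymic cDC1, most of it Vcam1 in the mature group, and Cd5l was at 0 in both. In thymic cDC2 it was 7093 to 10551 in immature and 5656 to 18629 in mature samples. NK cell markers summed to at most 24.0 and erythroid markers to at most 18.4 in thymic samples. The thymic epithelial list of 6 genes summed to 12911 to 14693 in immature and 859 to 1213 in mature thymic cDC2, and to 767 to 865 and 254 to 537 in thymic cDC1. The 6 plasmacytoid dendritic cell markers summed to 7126 to 8052 in immature and 1927 to 3045 in mature thymic cDC2, and to 1865 to 3136 and 1292 to 1327 in thymic cDC1. The 4 genes shared by both cDC subsets summed to 192141 to 318733 in immature and 50265 to 112748 in mature thymic samples. The part of these cells in the changes was not tested. All mature libraries were sequenced on lane 8. Within lane 8 the log2 difference of Fscn1 was 9.01 in cDC1 (3 mature against 3 immature samples) and 5.18 in cDC2 (3 against 2). Every called member kept its sign.

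The organs were compared with immature cells, thymic minus splenic. In cDC1 only Marcksl1 was called of the 10 members, where 8.77% of all genes were. It had 931, 1027, 2027 and 1003 counts in splenic cDC1 and 2760, 2978, 3698 and 2175 in immature thymic cDC1. The highest splenic sample, replicate 3, came close to the lowest thymic one without reaching it. The log2 fold change was 1.27 (SE 0.25, adjusted p = 0.00143), and 1.53 without splenic cDC1 replicate 3. It was 1.50 within lane 5 (1 thymic against 2 splenic samples) and 1.01 within lane 8 (3 against 2).

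Myo1g and Wipf1 passed the adjusted p in cDC1 but not the 2-fold limit. Myo1g had 7469, 7877, 10580 and 7348 counts in splenic cDC1, below most of the immature thymic samples (log2 fold change 0.55, adjusted p = 0.0778). Wipf1 had 8257, 6241, 6019 and 5508 in splenic cDC1, mostly above the thymic samples (log2 fold change -0.38, adjusted p = 0.0892). At this threshold without a fold limit, 3 of 10 members passed, where 15.4% of all genes did. Fscn1 had 281, 379, 1009 and 371 counts in splenic cDC1 and did not differ from immature thymic cDC1 beyond the error (log2 fold change -0.31, SE 0.34, adjusted p = 0.703).

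In cDC2 only Fscn1 was called between organs, where 14.2% of all genes were. Splenic cDC2 had 683, 317 and 987 Fscn1 counts against 3198, 2972 and 4640 in immature thymic cDC2. Every thymic sample lay above every splenic one. The difference was 5.90-fold (log2 fold change 2.56, SE 0.40, adjusted p = 7.88e-05). On the log2 scale it was 2.78 within lane 5 (1 thymic against 2 splenic samples) and 1.91 within lane 8 (2 against 1). Between subsets the tissue difference of Fscn1 differed by 2.87 (SE 0.52, adjusted p = 0.00177), where 4.98% of all genes were called and Fscn1 was the only member. Without the 3 samples farthest from their groups, 5 members were called, where 9.41% of all genes were, with Fscn1 at 2.02, Marcks at 1.26, Coro1a at -1.05, Myo1g at -1.09 and Marcksl1 at -1.41.

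Beside the Fscn1 difference other genes of mature cells were not uniformly higher. Immature thymic cDC2 had Fscn1 at 2.59% of the mature thymic cDC2 level, Ccr7 at 3.42%, Ccl22 at 8.11% and Esam at 0.81%. In splenic cDC2 the shares were 0.48% for Fscn1, 3.79% for Ccr7, 0.11% for Ccl22 and 6.94% for Esam. CCR7 and ESAM were used to sort the cells, so low shares of Ccr7 and Esam may be set by the sort. The shares in immature thymic and in splenic cDC2 were 58.2 and 83.9% for Cd80 and 68.5 and 110% for Cd83. For Relb they were 8.61 and 22.9%, and for Cd40 20.5 and 10.3%. The 7 mature dendritic cell genes summed to 41118 to 54265 in immature thymic cDC2 and to 47443 to 57365 in splenic cDC2. The thymic epithelial list of 6 genes summed to 12911 to 14693 in immature thymic cDC2, mostly Cdh1 and Epcam, against 114 to 187 in splenic cDC2, where Foxn1 and Psmb11 were at 0. Plasmacytoid dendritic cell markers summed to 7126 to 8052 in immature thymic and 2314 to 3422 in splenic cDC2, B cell markers to 172 to 241 and 657 to 708, and NK cell markers to 4.02 to 7.47 and 127 to 222. The part of such cells was not tested. In immature thymic cDC1, where Fscn1 was 0.21% of the mature level, Ccr7 was 0.65%.

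Among the other members in cDC2, Dock8, Wipf1 and Was were lower in thymus with no overlap, but by less than 2-fold. With Fscn1 these are 4 of 10 members without overlap, where 39.3% of all genes had none. Dock8 had 11639, 11473 and 15171 counts in splenic cDC2 against 7500 to 8577 in immature thymic cDC2 (log2 fold change -0.63, adjusted p = 0.00318). Wipf1 had 11861, 11022 and 12495 in splenic cDC2 (log2 fold change -0.57, adjusted p = 0.0137). Was had 4775, 3719 and 4634 in splenic cDC2 (log2 fold change -0.42, adjusted p = 0.0418). These with Fscn1 made 4 of 10 that passed the adjusted p, where 26.5% of all genes did.

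The subsets were then compared within each organ and stage, cDC2 minus cDC1. These comparisons share samples with those above and with each other, and so do not add independent evidence. In the spleen 1 of 10 members was called, where 16.6% of all genes were: Marcksl1, with 3970, 2412 and 6163 counts in splenic cDC2, each above the highest splenic cDC1 sample (log2 fold change 1.72, SE 0.28, adjusted p = 6.61e-05). Wipf1 (log2 fold change 0.87, adjusted p = 1.45e-04), Myo1g (0.91, adjusted p = 0.00297), Dock8 (0.55, adjusted p = 0.00386) and Was (0.31, adjusted p = 0.0949) were higher in cDC2 by less than 2-fold. Myo1g had 17517, 10419 and 20145 counts in splenic cDC2 and overlapped splenic cDC1 through replicate 2.

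Leaving out samples changed the calls in the splenic comparison. Without the 3 samples farthest from their groups, 4 members were called in spleen, where 18.8% of all genes were: Marcksl1, Myo1g at 1.31, Fscn1 at 1.27 and Marcks at -1.34. Marcks had 7723, 5673, 2603 and 4623 counts in splenic cDC1 and 2378, 5301 and 2247 in splenic cDC2. The lowest cDC1 value and the highest cDC2 value came from the samples left out. Without splenic cDC2 replicate 2 alone, Myo1g at 1.19 and Marcks at -1.05 joined Marcksl1, where 16.8% of all genes were called, and without splenic cDC1 replicate 3 alone, Myo1g at 1.03 did, where 16.9% were.

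Among immature thymic cells Fscn1 was the only member called, where 16.4% of all genes were. It was 9.78-fold higher in cDC2 (log2 fold change 3.29, SE 0.37, adjusted p = 9.19e-07). On the log2 scale the difference was 2.89 within lane 5 (1 cDC2 against 1 cDC1 sample) and 3.45 within lane 8 (2 against 3). Marcksl1 (log2 fold change 0.92, adjusted p = 0.0191) and Wipf1 (0.68, adjusted p = 0.00192) were higher in cDC2 by less than 2-fold, and Marcksl1 was called at 1.04 without immature thymic cDC1 replicate 3. Among mature thymic cells Was was the only member called, where 18.9% of all genes were, and was higher in cDC2 (log2 fold change 1.24, SE 0.14, adjusted p = 2.53e-06). Fscn1 did not differ between mature subsets beyond the error (log2 fold change -0.38, adjusted p = 0.538).

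**Figure D4:**
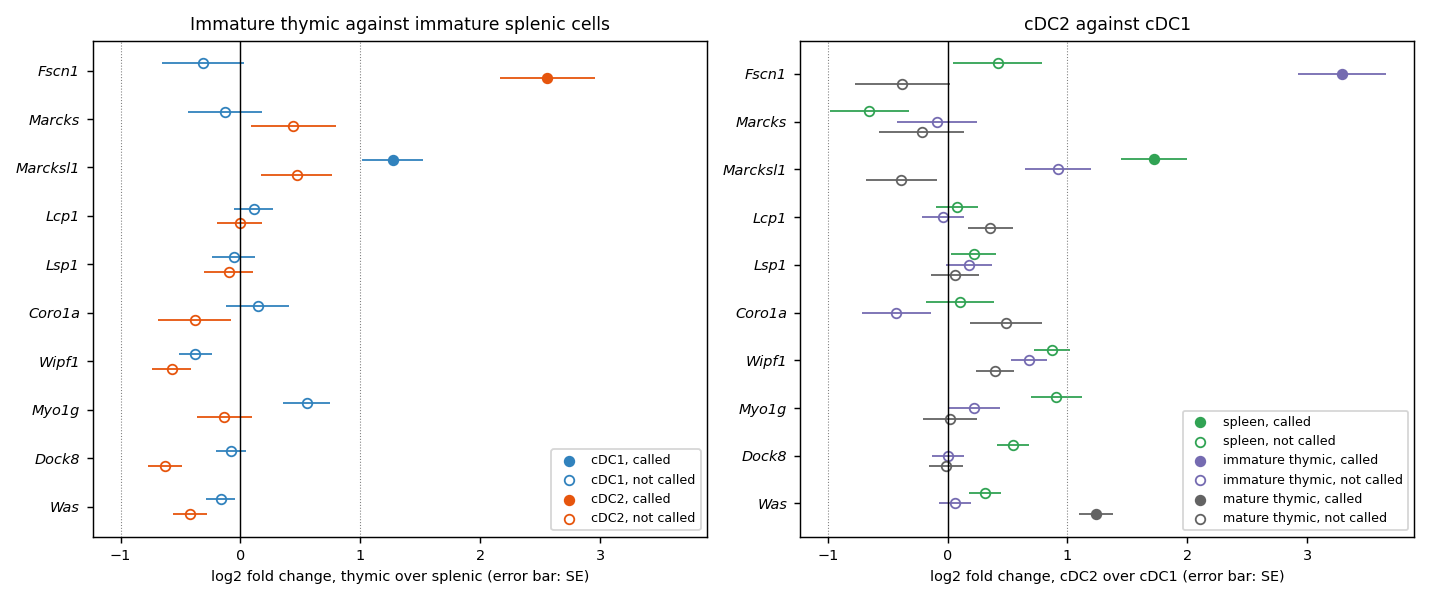
Log2 fold change on the log2(value + 1) scale of the 10 genes between organs (thymic minus splenic, immature cells) and between subsets (cDC2 minus cDC1), with bars for standard errors, filled points for called genes and dotted lines at 2-fold. Marcksl1 at 1.27 in cDC1 and Fscn1 at 2.56 in cDC2 are the called differences between organs.

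The change on maturation differed between subsets for 3 of 10 members, where 13.6% of all genes were called. For Fscn1 the change in cDC2 minus that in cDC1 was -3.67 on the log2 scale (SE 0.54, adjusted p = 1.25e-04). The mature levels of Fscn1 did not differ beyond the error while the immature levels did, whereas for Was the mature levels were the ones that differed. Marcksl1 differed by -1.30, as given above. The other 7 members differed by -0.28 to 0.91, with adjusted p of 0.163 or above.

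Ordered by group mean, 16 of the 50 neighbouring pairs differed at an adjusted p below 0.1. For Marcks, Lsp1, Lcp1 and Coro1a the single step in the order lay between mature and immature groups, and the 4 immature groups did not differ from their neighbours in order beyond the error. Fscn1 had a further step, with immature thymic cDC2 (3603 ± 905, SD, n = 3) below the mature groups and above splenic cDC2 (662 ± 336, n = 3), splenic cDC1 (510 ± 335, n = 4) and immature thymic cDC1 (366 ± 74.4, n = 4). For Marcksl1 and Myo1g splenic cDC1 was the lowest group and differed from the next, at 1247 ± 522 and 8318 ± 1525 counts (n = 4). The Myo1g step was below 2-fold (log2 fold change 0.55, limma adjusted p = 0.0778), and its samples overlapped those of immature thymic cDC1. Dock8 placed splenic cDC2 (12761 ± 2088, n = 3) between the mature groups and the other immature groups. For Wipf1 splenic cDC2 stood alone at the top (11793 ± 739, n = 3), and for Was the order ran from splenic cDC2 (4376 ± 574, n = 3) over the other immature groups to mature thymic cDC2 (1407 ± 260, n = 3) and mature thymic cDC1 (591 ± 63.5, n = 3).

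The members together took a larger share of all counts in mature cells. They made up 0.696 to 0.899% of all counts in immature samples and 1.38 to 1.83% in mature samples. Of this share, Fscn1 alone was 0.347 to 0.667% in mature samples and at most 0.0209% in immature samples. Across the 20 samples, which include the large steps between groups, log2 levels of Marcksl1 and Myo1g had a Pearson correlation of 0.98, Lsp1 and Myo1g of 0.97, and Lcp1 and Was of 0.93. Marcks and Coro1a ran opposite at -0.95. Wipf1 was the least related to the rest, at -0.25 to 0.37. Of all genes with a mean of at least 100 counts, those most like Fscn1 over the 20 samples were Tnfrsf4 (r = 0.993) and Tspan3 (0.986). For Marcks they were Itgb1 (0.975) and Chpt1 (0.974), for Marcksl1 Agrn (0.990) and Arrb2 (0.986), and for Lcp1 Eprs (0.988) and Stmn1 (0.981). For Lsp1 they were Bsdc1 (0.986) and Iscu (0.985), for Coro1a Fermt3 (0.984) and Trmt1 (0.977), and for Wipf1 Dyrk2 (0.956) and Ist1 (0.944). Myo1g ran with Uba7 (0.992) and Myo1c (0.991), Dock8 with Traf3 (0.984) and Mical3 (0.983), and Was with Myo1f (0.986) and Cyth4 (0.984). Myo1c and Myo1f are, like Myo1g, class I myosins.

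The members were set beside 118 other actin genes in 9 lists, of which 110 could be tested. On maturation 27 of them were called higher and 21 lower in cDC1 (43.6%), and 24 higher and 21 lower in cDC2 (40.9%), against 45.7% and 35.6% of all genes. Between organs 8 were higher and 5 lower in thymic cDC1, and 9 higher and 10 lower in thymic cDC2, against 8.77% and 14.2% of all genes called.

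Beside Fscn1 and Lcp1, 4 of the 9 other bundlers and crosslinkers tested rose in each subset and 0 fell. Actn1, an alpha-actinin, went from a mean of 1422 to 20904 counts in cDC1 (log2 fold change 3.88) and from 2711 to 18913 in cDC2 (2.80), and Pls3, the plastin of other tissues and a relative of Lcp1, went from 114 to 552 in cDC1 (2.28) and from 258 to 725 in cDC2 (1.48). Actn1 also differed between organs in opposite directions, lower in thymic than splenic cDC1 (log2 fold change -1.63) and higher in thymic cDC2 (1.43).

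Beside Was and Wipf1, 6 of 15 genes of the WASP, WAVE and WIP families rose and 1 fell in cDC1, and 4 rose and 1 fell in cDC2. Wasl, which encodes the widely expressed N-WASP, rose where Was fell, from 800 to 3009 counts in cDC1 (log2 fold change 1.94) and from 763 to 2280 in cDC2 (1.53). Hcls1, the cortactin relative of blood cells, was the one that fell, from 17796 to 1809 in cDC1 (-3.29) and from 11608 to 2369 in cDC2 (-2.32). None of the 9 Arp2/3 subunits was called in either subset by limma, edgeR or DESeq2. At an unadjusted p below 0.05 they numbered 7 by limma, 6 by edgeR and 7 by DESeq2 in cDC1, and 3, 2 and 3 in cDC2, and the limma log2 fold changes ran from -0.89 to 0.39 in cDC1 and from -0.43 to 0.79 in cDC2.

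Of 7 coronins and Arp2/3 antagonists tested beside Coro1a, 2 rose and 3 fell in cDC1, and 2 rose and 2 fell in cDC2. Coro1c, a widely expressed coronin, fell with Coro1a in both (log2 fold change -1.67 and -1.47). Arpin, an inhibitor of Arp2/3, rose from 1391 to 4399 counts in cDC1 (1.69) and from 342 to 5096 in cDC2 (3.93). Of 12 formins and Ena/VASP genes 3 rose and 4 fell in cDC1, and 3 rose and 5 fell in cDC2. The formins Daam1 (log2 fold change 3.88 and 2.78) and Inf2 (3.35 and 2.58) rose in both, while Diaph3 (-3.09 and -2.93) fell in both, and Evl fell from 5066 to 267 counts in cDC1 (-4.36).

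Of 22 genes for monomers, cofilin, capping and severing, 3 rose and 5 fell in cDC1, and 2 rose and 4 fell in cDC2. Gsn, the severing protein gelsolin, fell from 13864 to 1361 counts in cDC1 (log2 fold change -3.37) and from 16385 to 3172 in cDC2 (-2.42), and Ssh1, a phosphatase that activates cofilin, rose in both (3.71 and 2.88). Between organs Capg, a capping protein, was higher in thymic than splenic cDC2, with 3734 against 89.7 counts (5.39). Of 15 myosins and tropomyosins tested beside Myo1g, 4 rose and 2 fell in each subset. Myo1f, a class I myosin like Myo1g, fell where Myo1g rose, from 8312 to 74.2 counts in cDC1 (-6.99) and from 7179 to 655 in cDC2 (-3.75). Myh10, a non-muscle myosin II, rose from 6.3 to 995 in cDC1 (7.54) and from 10.8 to 640 in cDC2 (5.80).

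Of 11 DOCK and ELMO genes tested beside Dock8, 3 rose and 3 fell in cDC1, and 2 rose and 3 fell in cDC2. Dock9, which like Dock8 acts on Cdc42, rose from 66.6 to 5137 counts in cDC1 (6.43) and from 65.8 to 2173 in cDC2 (5.03), while Dock4 fell (-3.43 and -3.17). Among 10 linkers and protein kinase C genes tested beside Marcks, Marcksl1 and Lsp1, 2 rose and 3 fell in cDC1, and 3 rose and 4 fell in cDC2. Basp1, a membrane protein related in behaviour to Marcks, rose from 3543 to 25376 counts in cDC1 (2.84) and from 2306 to 17225 in cDC2 (2.89), and was also higher in thymic than splenic cDC1 (2.57). Prkcb, one of the kinases, fell from 1109 to 195 in cDC1 (-2.63) and from 2334 to 878 in cDC2 (-1.43).

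**Figure D5:**
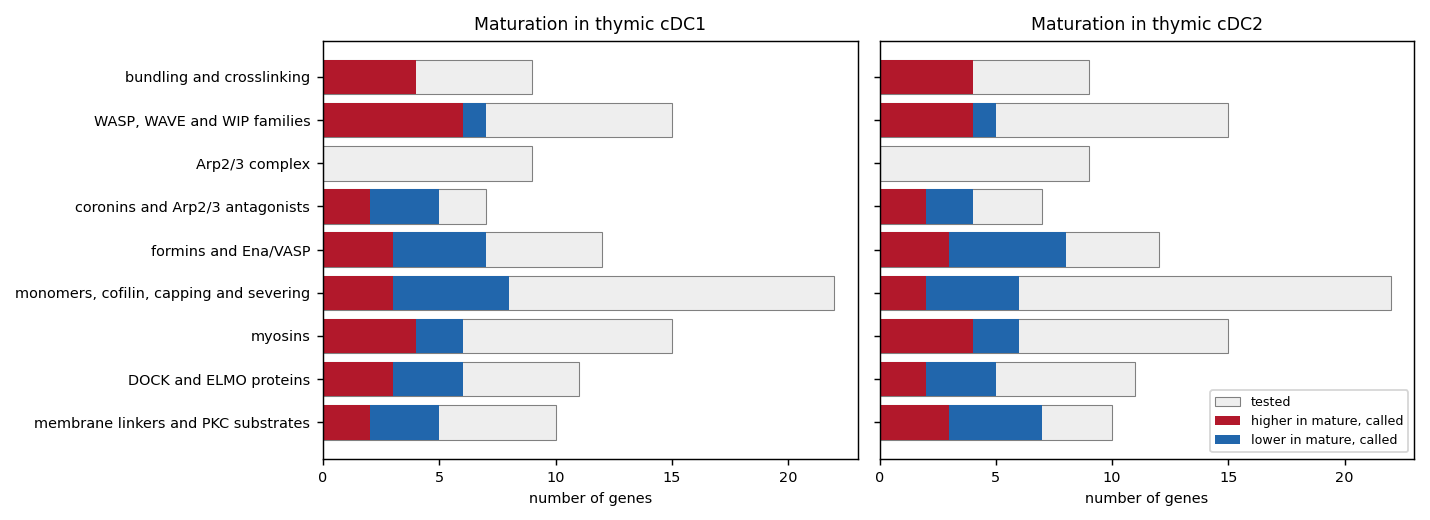
Number of genes tested (grey bars) and called higher (red) or lower (blue) on maturation in each of the 9 lists of other actin genes, in cDC1 and cDC2. The Arp2/3 complex has no called gene in either panel, and the bundling list has 4 higher and 0 lower in both.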

How the data were processed

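RNA was prepared with a stranded mRNA kit, sequenced in 21 libraries, trimmed with Cutadapt and aligned by the authors with STAR 2.6 to mm10, counted with HTSeq and divided by DESeq2 1.24.0 size factors. The deposited values are these normalized read counts (unit: signal), 1 table per library, and whole reads were recovered for 100% of them (tolerance 1e-06), giving 14266867 to 40119669 reads per library. Reads carried no molecular identifiers. How counting treated strand is not given in the sources used here. The deposited tables hold no other sample's columns, and 37607 of 37734 identifiers were in GENCODE M21, which gave positions and exon lengths.

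The main test was limma 3.58.1 in R 4.3.3 (trend) on log2(value + 1) over 6 groups and 20 samples, for genes with at least 10 in at least 3 samples (14970), called at an adjusted p below 0.1 and more than 2-fold. Ratios of 2 genes within a sample were compared by exact permutation with scipy 1.17.1. Scripts were tested on simulated data. edgeR 4.0.16 and DESeq2 1.42.0 on recovered reads, other pseudocounts, filters, scalings, lane, blocks and left-out samples were alternatives. The members, gene lists and tests were chosen with earlier results of these data known. Members were all named. From each list up to 2 risers and 2 fallers were eligible, called, without overlap and with a mean of at least 100, and some of these are printed. One of the gene lists is not reported here. Arpin and Diaph3 are listed in the files under older symbols. Samples that share a label number were checked by the correlation of their deviations from group means, and not every pair exceeded 0.1, so the numbers were not taken as pairs.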

Additional observations from a re-analysis of the deposited data

Results flagged for a closer look

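In splenic cDC1, replicate 3 lay far above the other 3 samples for 3 of the 10 genes, with 1009 normalized counts of Fscn1, 2027 of Marcksl1 and 10580 of Myo1g. These gaps were found in normalized counts. On the log2 scale only that of Marcksl1 passed the gap test, with a gap of 0.874 of the range, while Fscn1 at 0.767 and Myo1g at 0.809 did not, and Myo1g in immature thymic cDC1 did at 0.839 through replicate 4, its lowest at 9845 counts. The gap test used flags about 1 in 20 groups by chance, and 20 sets of 4 samples, each 1 gene in 1 group, were tested on each scale. Replicate 3 was also 1 of the 3 samples farthest from their groups over all genes.

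The change on maturation differed between cDC2 and cDC1 for 3 genes in the interaction test of limma, by -3.67 for Fscn1 (adjusted p = 1.25e-04), -1.30 for Marcksl1 (adjusted p = 0.0374) and 1.18 for Was (adjusted p = 3.66e-04) on the log2 scale. The difference between thymus and spleen also differed between subsets for Fscn1, by 2.87 (adjusted p = 0.00177).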

How the results depend on the processing

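Of 1004 values of single genes over 41 results and their alternatives, 967 kept their direction and their side of the thresholds, 17 lost a call, 19 gained one and 1 reversed, Wipf1 on maturation in cDC1 at -0.15 under equal totals. Of 49 differences that did not pass the test, 17 changed sign and 7 were called in some alternative. Requiring 4-fold left 4 members in cDC2 maturation (18.2% of all genes) and 1 in the difference of maturation (7.38%). It left 0 between organs in cDC1 (4.38%), between subsets in spleen (8.4%) and between mature subsets (10.5%). The adjusted p alone gave 3 and 4 members between organs in cDC1 and cDC2 (15.4 and 26.5% of all genes), 5 between subsets in spleen (29.4%), 3 in immature (26.0%) and 2 in mature thymic cells (30.3%). Leaving out 1 sample gave 1 to 3 members between splenic subsets (14.8 to 16.9% of all genes) and 1 to 2 in the difference of tissue effects (3.87 to 5.77%). It gave 1 to 2 between immature thymic subsets, where the share was at least 14.9% and below the 16.4% found with all samples. In cDC2 maturation Lcp1 was gained without mature thymic cDC2 replicate 2 (35.1% of all genes). Coro1a was lost there without mature thymic cDC2 replicate 3 (33.7%). In the difference of maturation Coro1a was gained without mature thymic cDC1 replicate 3 (18.4%) or mature thymic cDC2 replicate 3 (14.9%). Another alternative, chosen after seeing the data, left out the 3 samples farthest from their groups. It gave 4 members in spleen, 5 in the tissue difference and 7 in cDC2 maturation (18.8, 9.41 and 34.0% of all genes). Leaving out splenic cDC1, splenic cDC2 and mature thymic cDC2 replicate 3, also chosen after seeing the data, changed no other call than Coro1a in cDC2, now -0.94, and Coro1a in the difference of maturation, now 1.18. The cause of these changes was not tested.

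With 1 sample per label number the ratio of Fscn1 to Lcp1 in cDC1 differed by 10.2 and that of Wipf1 to Was by 2.54, both at the smallest exact permutation p that 3 against 3 samples allow, 0.1. Without 1 sample each they ranged from 10.2 to 10.4 and from 2.47 to 2.65. Marcksl1 to Marcks in cDC2 ranged from -0.19 to 0.19. The label number as a replicate block (random, with a correlation of 0.155, or fixed) changed 0 of 60 values. Same-numbered samples correlated at -0.15 to 0.46. Intervals for single counts would cover counting error only, and with 3 or 4 samples per group smaller differences may be missed.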
